A study of Rattus norvegicus with 12 samples.

Results

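Respiratory complex I was read through the 46 probe sets whose single gene symbol starts with Nduf, out of 31042 probe sets that were not controls. Of these, 39 belonged to 36 genes with subunit names (Ndufa, Ndufb, Ndufc, Ndufs and Ndufv) and 7 to 6 genes of assembly factors (Ndufaf). A filter on dim signal, set at a mean of 4.91 log2 over all arrays, left 37 subunit and 7 assembly factor probe sets; the lowest group mean of any of these 44 was 5.92 log2. The arrays came from papillary muscles of the right ventricle, strips of heart muscle that tether the valve, each from a different male LBNF1 rat, kept contracting in culture for 12 h. High mean stretch and high cyclic shortening were each a target of 16% of slack length, and low a target of 4%. Crossing these gave 4 groups of 3 muscles: both inputs high, only stretch high, only shortening high, and neither high (low stretch and low shortening, called low-low below). Shared by every group were the strain, the sex, pacing at 1 Hz and medium at 37 °C, and none was left uncultured; labelled ages ran from 72 to 85 with no unit stated.

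Complex I is the entry point of the mitochondrial respiratory chain: it takes electrons from NADH, passes them along iron-sulfur clusters to ubiquinone and pumps protons across the inner membrane. It has a peripheral arm in the matrix, which holds the nuclear-encoded core that carries electrons, and a membrane arm built around mitochondrially encoded subunits, which were not read here. Accessory subunits surround both arms, and assembly factors help to build the enzyme without staying in it. Heart muscle, which depends on oxidative metabolism, holds much of it. Ndufa4 and Ndufa4l2 carry complex I names, although Ndufa4 is now placed in complex IV and Ndufa4l2 is its relative; they were kept because the choice was made by symbol.

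Most results below rest on the 3 low-low arrays, which differed from the other 9 across the whole array. Across probe sets, Pearson's r was 0.991 to 0.993 within the low-low group. It was 0.984 to 0.996 for pairs of the remaining 9 arrays, and 0.951 to 0.962 for pairs that joined a low-low array with one of those. Median log2 intensity lay between 5.52 and 5.57 on every array. The low-low arrays (5.52 to 5.54) lay just below the other 9 (5.55 to 5.57). The excess of 3' over 5' signal in the Gapdh and Actb control probe sets, averaged over both genes, was 1.36 ± 0.29 log2 in low-low muscles (SD, n = 3) and 3.31 ± 0.51 elsewhere (SD, n = 9), an RNA quality value that did not overlap (exact two-sided permutation p = 0.00455, the smallest these arrays allow). Labelled animal weight, with no unit stated, was 305 to 318 against 267 to 297. Of 14 cardiomyocyte markers, 13 had a probe set past the filter (all but Actc1). Their summed intensity was 164437 to 171356 in low-low muscles, against 125847 to 137563 elsewhere. Macrophage markers (8 of 10 past the filter, without Cd163 and Aif1) summed to 4895 to 5605 against 2257 to 2985, and fibroblast markers (10 of 10) to 13040 to 13614 against 9309 to 12985. Endothelial markers (9 of 10, without Cdh5) summed to 2414 to 3441 against 2605 to 3344, and smooth muscle and pericyte markers (7 of 8, without Cnn1) to 399 to 568 against 360 to 484. None of 6 adipocyte markers had a probe set past the filter. Such sums follow the brightest genes, and the members of each list did not share a direction. With stretch at low shortening, 3 of 13 cardiomyocyte, 3 of 8 macrophage and 4 of 10 fibroblast markers were lower in low-low muscles. So were 5 of 9 endothelial and 2 of 7 smooth muscle and pericyte markers, by sign alone. In whole muscle, fewer cells of a type and less RNA per cell cannot be told apart.

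Promoter sequences of 5 genes are shown because their transcripts mark both ends of what follows: Ndufa5, Ndufb8 and Ndufb10 had the smallest interaction p-values of the subunit genes, and Ndufa1 and Ndufb3 the largest. Each run is the 250 bases before the gene's start in RefSeq (rat build GRCr8), 5′ to 3′ along the gene. Capitals mark matches, on either strand, to the letters searched: the NRF1 core (NRF1 regulates nuclear genes for mitochondria), AAGGTCA (the element of ESRRA), AAGATGGC (YY1), CCGGAAG (ETS factors such as GABPA), GGGCGG (the GC box of SP1) and CCAAT (NF-Y).
Ndufa5 promoter: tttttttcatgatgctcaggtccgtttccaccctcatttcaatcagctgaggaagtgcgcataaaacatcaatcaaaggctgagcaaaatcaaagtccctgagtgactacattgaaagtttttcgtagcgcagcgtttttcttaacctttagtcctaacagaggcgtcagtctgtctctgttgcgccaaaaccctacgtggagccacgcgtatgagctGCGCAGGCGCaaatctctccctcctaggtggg
Ndufb8 promoter: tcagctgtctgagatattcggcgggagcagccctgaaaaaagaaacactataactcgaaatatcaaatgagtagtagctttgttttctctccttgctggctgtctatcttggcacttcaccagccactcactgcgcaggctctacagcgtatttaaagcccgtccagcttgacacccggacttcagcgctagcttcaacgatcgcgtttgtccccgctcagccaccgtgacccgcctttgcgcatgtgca
Ndufb10 promoter: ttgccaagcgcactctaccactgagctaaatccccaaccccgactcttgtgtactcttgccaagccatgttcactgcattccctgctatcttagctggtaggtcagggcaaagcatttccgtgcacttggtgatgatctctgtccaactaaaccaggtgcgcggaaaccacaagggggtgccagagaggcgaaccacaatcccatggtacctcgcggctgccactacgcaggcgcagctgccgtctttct
Ndufa1 promoter: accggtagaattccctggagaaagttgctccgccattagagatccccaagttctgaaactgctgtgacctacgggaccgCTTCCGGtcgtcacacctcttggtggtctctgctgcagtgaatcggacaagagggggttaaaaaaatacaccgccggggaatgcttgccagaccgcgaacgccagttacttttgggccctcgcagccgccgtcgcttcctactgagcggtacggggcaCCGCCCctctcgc
Ndufb3 promoter: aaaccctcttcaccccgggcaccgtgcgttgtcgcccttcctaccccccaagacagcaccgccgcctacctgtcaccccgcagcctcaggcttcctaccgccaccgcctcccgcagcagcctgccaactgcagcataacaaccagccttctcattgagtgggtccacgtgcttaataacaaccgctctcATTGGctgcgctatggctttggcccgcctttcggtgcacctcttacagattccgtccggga
The Ndufa5 window lies at chr4:53971236-53971485 on the minus strand, Ndufb8 at chr1:253362937-253363186 on the minus strand, and Ndufb10 at chr10:14255967-14256216 on the minus strand. The Ndufa1 window lies at chrX:121293556-121293805 on the minus strand and Ndufb3 at chr9:67623167-67623416 on the plus strand. Ndufa5 held an NRF1 match, Ndufa1 an ETS match and a GC box, and Ndufb3 a CCAAT match. None of the 6 strings was found in the Ndufb8 and Ndufb10 windows.

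RefSeq gave such a window for 40 of the 42 Nduf genes, and for 33 of the 35 subunit genes past the filter. The NRF1 core was found in 5 of these 33 (15.2%), against 3.75% of 33469 promoter windows of the same length. The ETS letters were found in 7 (21.2% against 7.27%), the GC box in 11 (33.3% against 30.5%), CCAAT in 10 (30.3% against 34%), the ESRRA letters in 1 (3.03% against 3.99%) and the YY1 letters in 0 (0% against 1.63%). Among subunit genes with a called interaction, 3 of 23 windows held the NRF1 core and 4 of 23 the ETS letters. Among those without a call the counts were 2 of 10 and 3 of 10. A match describes letters in the window and not a bound site. The 33469 windows were not limited to genes past the filter, as the 33 were. An excess over other genes past the filter was not tested. The 36 subunit genes lie on 15 chromosomes, and 16 of them have at least 1 pseudogene named after them in RefSeq, such as Ndufa5 and Ndufa13; whether the probes also read pseudogene copies was not tested.

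The first comparison asked what mean stretch did when shortening was low, and it set high stretch with low shortening against the low-low group. Subunit messages were lower at high stretch: 28 of 37 subunit probe sets passed as lower and none as higher, with a median difference of -0.87 log2, while a further quantile normalization gave 23 lower and 3 higher (Ndufa9, Ndufs4 and Ndufs6) with a median of -0.63. In limma, 24.4% of all 18625 probe sets tested passed as lower and 24.1% as higher at an adjusted p under 0.05, and the median over all was 0.043 log2. The subunit differences ran from -4.22 in Ndufb8 to 0.19 in Ndufs6, and the latter did not pass (adjusted p = 0.153). Of the 7 assembly factor probe sets, 2 passed as lower and 2 as higher, with a median of -0.071 log2. The muscles of the low-low group also differed in the 3' to 5' index and in weight. Adding the index to the model as a covariate left 14 subunit probe sets lower, beside 2085 called probe sets in all.

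The second comparison asked what cyclic shortening did when stretch was low, and it shares its 3 low-low arrays with the first. At high shortening 27 of 37 subunit probe sets passed as lower and none as higher, with a median of -0.78 log2, and after a further quantile normalization 23 were lower and the same 3 genes higher (median -0.52). Over all probe sets 23.6% passed as lower and 23.4% as higher, with a median of 0.040. Ndufs1 is the subunit probe set that passed for stretch and not for shortening, at -0.36 (adjusted p = 0.017) and -0.24 log2 (adjusted p = 0.0987); whether the 2 differences differ was covered by the comparison of single inputs, which did not pass (adjusted p = 0.893). Among assembly factors 2 passed as lower and 2 as higher. Adding the control-gene index to the model left 18 subunit probe sets lower, beside 3275 called probe sets in all.

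**Figure D1:**
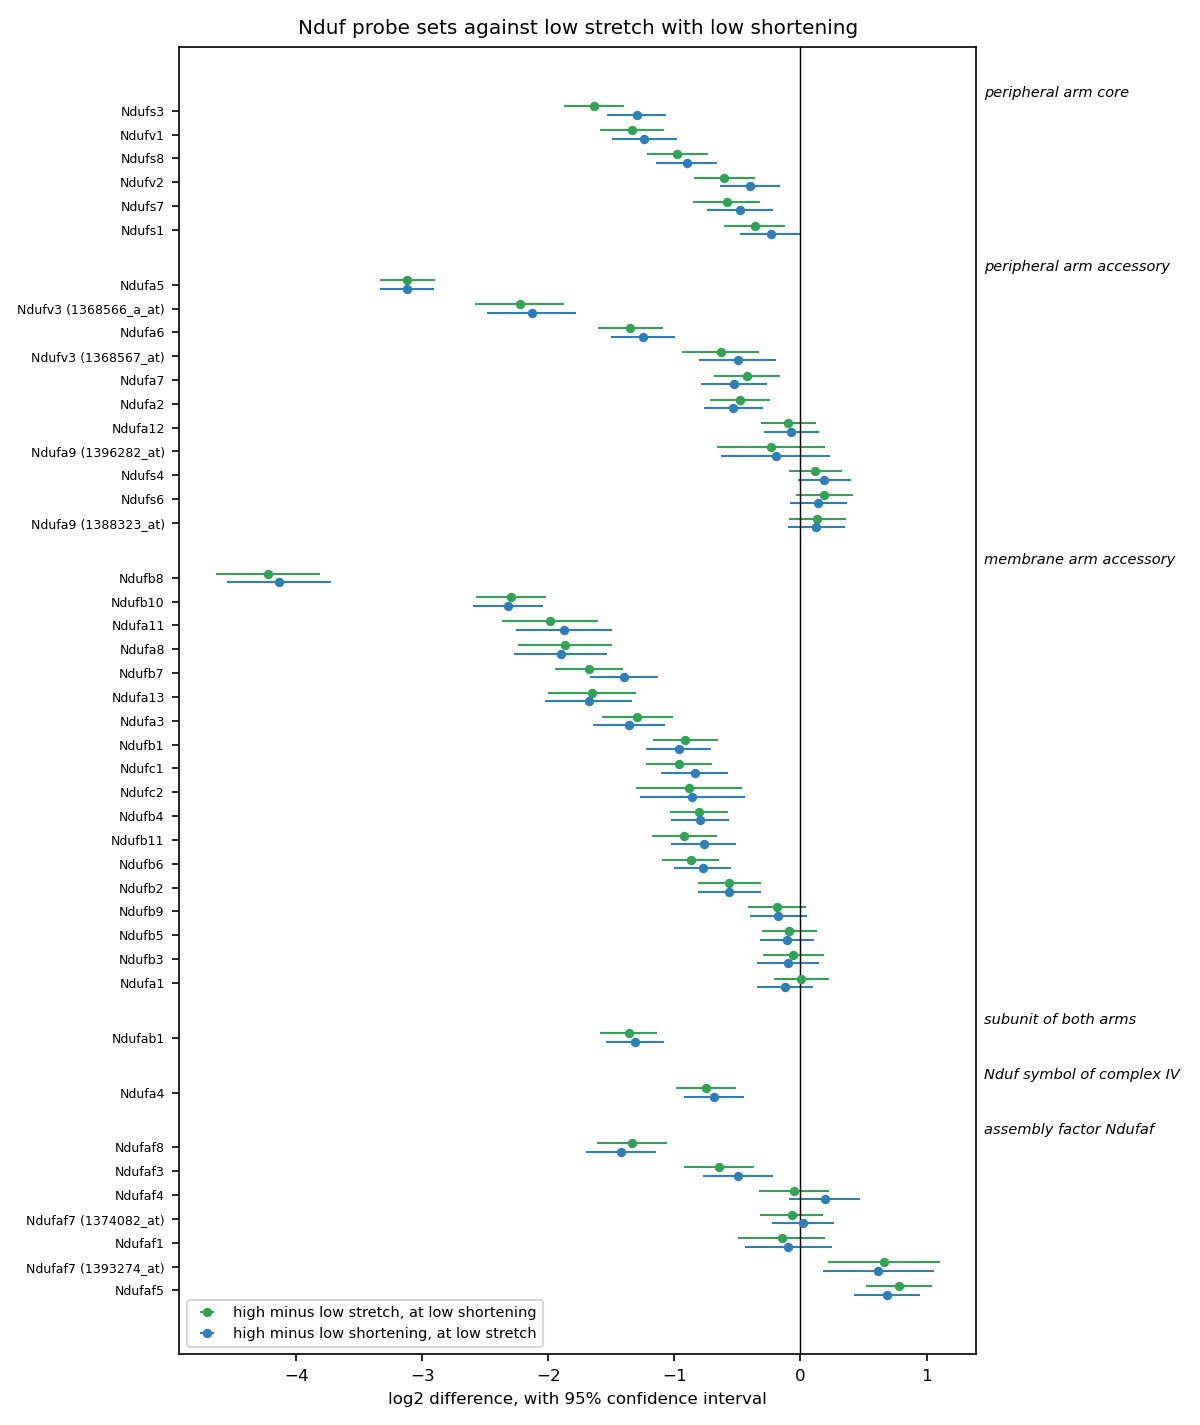
Log2 differences of the 44 Nduf probe sets past the filter for stretch at low shortening (green) and shortening at low stretch (blue), grouped by role, with 95% confidence intervals from limma (n = 12 arrays). Both comparisons subtract the same 3 low-low arrays; Ndufb8 lies at -4.22 and -4.14, and Ndufaf5 on the other side of 0 at 0.78 and 0.69.

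Of the core of the peripheral arm, 6 genes were read, each by 1 probe set. All 6 passed as lower at high stretch with low shortening, as 24.4% of all probe sets did. Ndufs3, a core subunit beside the ubiquinone site, measured 12.63, 12.40 and 12.53 log2 in the low-low muscles. It measured 11.33, 11.11 and 11.22 with low stretch and high shortening, 10.91, 10.91 and 10.82 with high stretch and low shortening, and 11.18, 11.15 and 11.20 with both inputs high. Every low-low value lay above the other 9. The difference for stretch at low shortening was -1.64 log2 (3.11-fold lower, SE 0.11, limma adjusted p = 2.42e-07, n = 12), and for shortening at low stretch -1.30 log2 (SE 0.11, adjusted p = 1.78e-06).

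Ndufv1 binds NADH and the flavin that accepts its electrons. Its values were 13.06, 12.95 and 12.87 log2 in the low-low group. They were 11.89, 11.72 and 11.55 with low stretch and high shortening, 11.71, 11.62 and 11.54 with high stretch and low shortening, and 11.66, 11.72 and 11.76 with both high. The low-low muscles were again above all others, with -1.34 log2 for stretch (SE 0.12, adjusted p = 2.47e-06) and -1.24 for shortening (adjusted p = 5.07e-06). The 4 other core genes, all iron-sulfur proteins, differed by less. Ndufs8 differed by -0.98 log2 for stretch at low shortening, Ndufv2 by -0.60, Ndufs7 by -0.59 and Ndufs1 by -0.36. In each of the 4 the low-low arrays lay above the other 9, as in 22.7% of all probe sets past the filter.

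Accessory subunits of the peripheral arm were split: 6 of 11 probe sets passed as lower at high stretch with low shortening (54.5%). Over all probe sets 24.4% did, and the median of the 11 was -0.42 log2. Ndufa5, an accessory subunit of this arm, stood at 11.94, 11.85 and 11.85 log2 in the low-low muscles. It stood at 8.73, 8.71 and 8.83 with low stretch and high shortening, at 8.71, 8.82 and 8.76 with high stretch and low shortening, and at 8.66, 8.69 and 8.76 with both high. The low-low values lay above the other 9, and the remaining groups overlapped. The difference was -3.12 log2 for stretch at low shortening (8.68-fold lower, SE 0.10, adjusted p = 1.8e-09) and -3.12 for shortening at low stretch (8.70-fold lower, adjusted p = 2.27e-09).

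Ndufv3 is a small accessory subunit near the NADH site and was read by a pair of probe sets. With 1368566_a_at the low-low values were 12.94, 12.70 and 12.77 log2. The others were 10.81, 10.45 and 10.75 with low stretch and high shortening, 10.57, 10.46 and 10.69 with high stretch and low shortening, and 11.16, 10.75 and 10.56 with both high. With 1368567_at they were 6.50, 6.51 and 6.63 in the low-low group, 6.27, 5.86 and 6.02 with low stretch and high shortening, 5.80, 6.06 and 5.89 with high stretch and low shortening, and 6.27, 5.91 and 5.98 with both high. Both placed the low-low arrays above the rest, but the size differed: -2.23 against -0.63 log2 for stretch at low shortening (adjusted p = 5.16e-07 and 0.00261). For the main effect of shortening 1368566_a_at passed (adjusted p = 9.83e-05) and 1368567_at did not (adjusted p = 0.189).

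Ndufa6, which holds the acyl carrier protein on the complex, differed by -1.35 log2 for stretch at low shortening (adjusted p = 2.22e-06). Ndufa2 (-0.48) and Ndufa7 (-0.42, by 1375411_at) also passed. The other 5 probe sets of this class did not. Ndufs4, an accessory subunit whose loss in humans causes Leigh syndrome, measured 11.49, 11.51 and 11.48 log2 in the low-low group. It measured 11.69, 11.63 and 11.72 with low stretch and high shortening, 11.65, 11.63 and 11.55 with high stretch and low shortening, and 11.59, 11.66 and 11.71 with both high. The low-low values lay just under the other 9, with differences of 0.12 log2 for stretch (adjusted p = 0.342) and 0.19 for shortening (adjusted p = 0.131); a further quantile normalization gave 0.27 (adjusted p = 0.0364) and 0.35 (adjusted p = 0.0118), and a trended robust prior passed the shortening value (adjusted p = 0.0478).

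Ndufs6, a zinc-binding accessory subunit, had low-low values below the other 9 as well (12.35 to 12.43 against 12.44 to 12.71 log2) and did not pass for stretch at low shortening (0.19 log2, adjusted p = 0.153), but did with a trended robust prior (adjusted p = 0.0495) and after a further quantile normalization (0.47 log2, adjusted p = 0.00335). Ndufa12 differed by -0.10 log2 (adjusted p = 0.458). Ndufa9, near the ubiquinone site, was read by a pair of probe sets that lay on opposite sides of 0 at low shortening, at 0.13 for 1388323_at and -0.23 for 1396282_at, neither of which passed; the first passed after a further quantile normalization, at 0.42 (adjusted p = 0.00761). With 1388323_at it measured 12.43, 12.31 and 12.32 log2 in the low-low group, 12.55, 12.42 and 12.46 with low stretch and high shortening, 12.39, 12.56 and 12.51 with high stretch and low shortening, and 12.32, 12.44 and 12.45 with both high. With 1396282_at it measured 7.29, 6.86 and 6.89, then 6.98, 6.65 and 6.81, then 6.54, 6.94 and 6.86, and 6.05, 6.63 and 6.78 in the same order of groups. All groups overlapped by 1388323_at. By 1396282_at the low-low values lay above those with both inputs high and overlapped the other groups, and this probe set passed where both inputs were high against low-low (-0.53 log2, adjusted p = 0.0451).

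In the membrane arm 14 of 18 accessory probe sets passed as lower at high stretch with low shortening (77.8%, against 24.4% of all probe sets). The median of the 18 was -0.92 log2, and 14 passed as lower for shortening at low stretch (77.8%, against 23.6%). Ndufb8 had the largest difference of any Nduf probe set. Its values were 10.31, 10.43 and 10.82 log2 in the low-low muscles. They were 6.32, 6.48 and 6.36 with low stretch and high shortening, 6.48, 6.27 and 6.15 with high stretch and low shortening, and 7.10, 6.42 and 6.45 with both high. Replicate 1 of the muscles with both inputs high was the highest outside the low-low group, and still below every low-low muscle. The difference was -4.22 log2 for stretch (18.7-fold lower, SE 0.19, adjusted p = 2.14e-08) and -4.14 for shortening (17.6-fold lower, adjusted p = 2.71e-08).

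Ndufb10, which folds with disulfide bonds on the intermembrane side, measured 12.61, 12.71 and 12.72 log2 in the low-low group. It measured 10.36, 10.26 and 10.46 with low stretch and high shortening, 10.22, 10.45 and 10.48 with high stretch and low shortening, and 10.62, 10.24 and 10.36 with both high. The 9 arrays outside the low-low group overlapped, and the stretch difference at low shortening was -2.30 log2 (4.92-fold lower, adjusted p = 6.5e-08). Ndufb7 is another subunit of the intermembrane side. It measured 12.57, 12.65 and 12.68 log2 in the low-low group, 11.16, 11.16 and 11.38 with low stretch and high shortening, 11.10, 10.87 and 10.90 with high stretch and low shortening, and 11.44, 11.09 and 11.27 with both high. Every low-low value lay above the other 9. Its difference was -1.68 log2 for stretch (3.20-fold lower, adjusted p = 6.12e-07) and -1.40 for shortening (2.64-fold lower, adjusted p = 2.96e-06).

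Of the other membrane arm genes that passed for stretch at low shortening, Ndufa11 differed by -1.98, Ndufa8 by -1.87 and Ndufa13, also known as the apoptosis-linked protein GRIM-19, by -1.65 log2. Ndufa3 followed at -1.29, Ndufc1 at -0.96, Ndufb11 at -0.92, Ndufb1 at -0.91 and Ndufc2 at -0.89. Ndufb6 (-0.87), Ndufb4 (-0.80) and Ndufb2 (-0.56) completed the 14. In each of these 11 the lowest low-low array was above the highest of the other 9, as in 22.7% of all probe sets past the filter.

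Ndufa1, Ndufb3, Ndufb5 and Ndufb9 did not pass. Ndufa1, a small membrane subunit encoded on the X chromosome, measured 13.45, 13.55 and 13.54 log2 in the low-low group, 13.30, 13.41 and 13.45 with low stretch and high shortening, 13.46, 13.49 and 13.60 with high stretch and low shortening, and 13.46, 13.43 and 13.37 with both high. Ndufb3 measured 12.87, 12.85 and 12.82, then 12.78, 12.70 and 12.76, then 12.60, 12.87 and 12.90, and 12.68, 12.70 and 12.82 in the same order. Ndufb5 measured 13.33, 13.44 and 13.43, then 13.30, 13.25 and 13.33, then 13.23, 13.36 and 13.35, and 13.34, 13.31 and 13.40. The groups overlapped in Ndufb5. In Ndufb3 the low-low values overlapped those with only stretch high and lay above the other groups, and in Ndufa1 the muscles with only stretch high lay above those with only shortening high. Their 95% intervals for stretch at low shortening were -0.21 to 0.23 log2 in Ndufa1, -0.30 to 0.19 in Ndufb3 and -0.30 to 0.13 in Ndufb5. Ndufb9, a partner of the acyl carrier protein, differed by -0.19 log2 (adjusted p = 0.158) with low-low arrays at 13.50 and above and the others at 13.48 and below. The highest signal of any probe set on any array was 14.59 log2; whether signals near it were compressed was not tested.

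**Figure D2:**
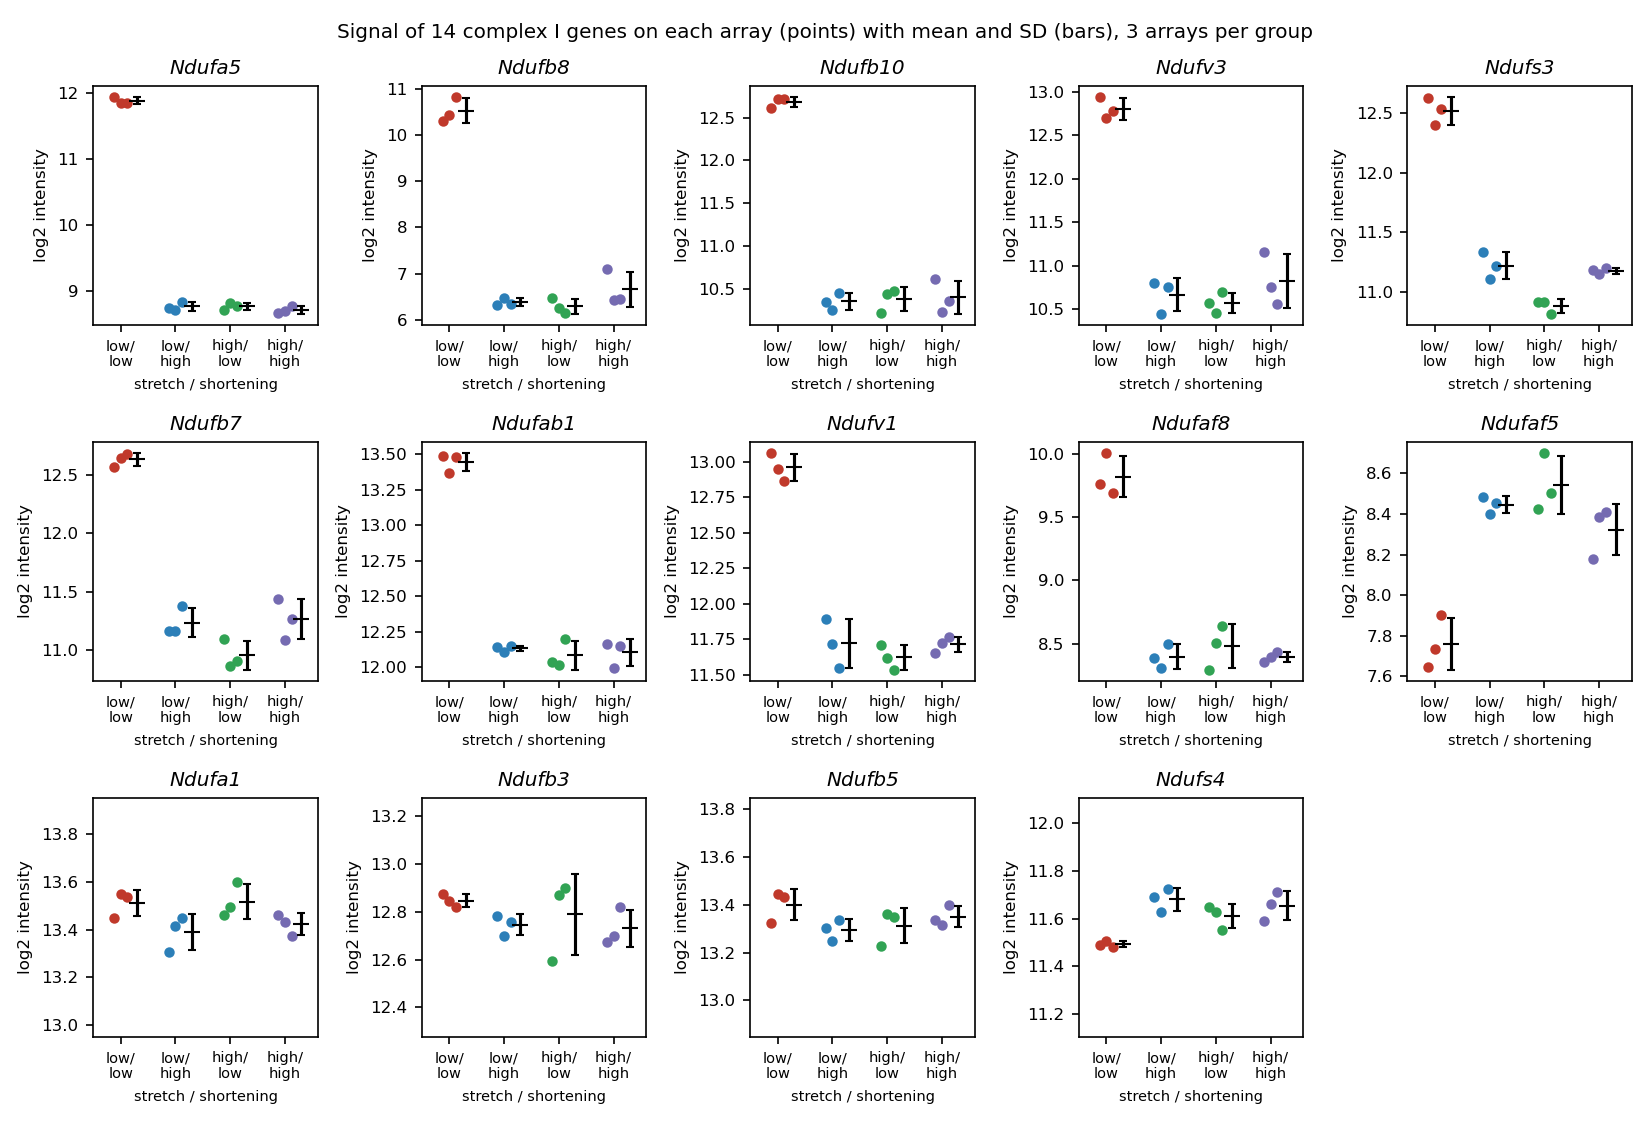
Log2 intensity of 14 genes on each of the 12 arrays (points, 3 per group) with the group mean and SD (black), for the 8 subunits and 2 assembly factors of smallest interaction p and the 4 subunits of largest p. Each panel has its own axis, at least 1 log2 high and not starting at 0; in Ndufaf5 the low-low points lie at the bottom, and in Ndufa1, Ndufb3 and Ndufb5 their range overlaps that of the other 9 arrays as a set.

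Ndufab1, the mitochondrial acyl carrier protein, sits in both arms and also serves fatty acid synthesis. It measured 13.49, 13.37 and 13.48 log2 in the low-low group. It measured 12.14, 12.11 and 12.15 with low stretch and high shortening, 12.03, 12.01 and 12.20 with high stretch and low shortening, and 12.16, 11.99 and 12.15 with both high. The low-low muscles lay above the rest, and the stretch difference at low shortening was -1.36 log2 (2.57-fold lower, SE 0.11, adjusted p = 8.5e-07). Ndufa4, the subunit now placed in complex IV, differed by -0.75 log2 for stretch (adjusted p = 0.000139) and -0.68 for shortening (adjusted p = 0.000287). Ndufa4l2 did not reach the filter, with group means of 4.62 to 4.91 log2. In all, the lowest low-low array exceeded the highest other array in 29 of the 37 subunit probe sets and the low-low arrays lay below all others in 2 (Ndufs4 and Ndufs6). Over all probe sets past the filter these shares were 22.7% and 20.4%.

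Assembly factors showed no common direction. For stretch at low shortening 2 of 7 probe sets passed as lower and 2 as higher (28.6% each). These shares were near the 24.4% and 24.1% of all probe sets. In human cells NDUFAF5 hydroxylates an arginine of NDUFS7, and NDUFAF8 is needed for its stability. Ndufaf8 measured 9.76, 10.01 and 9.69 log2 in the low-low muscles, 8.38, 8.31 and 8.50 with low stretch and high shortening, 8.29, 8.50 and 8.64 with high stretch and low shortening, and 8.35, 8.39 and 8.43 with both high. Its difference was -1.34 log2 for stretch at low shortening (2.53-fold lower, SE 0.13, adjusted p = 4.4e-06) and -1.42 for shortening at low stretch (adjusted p = 2.96e-06). Ndufaf5 went the other way. It measured 7.65, 7.73 and 7.90 log2 in the low-low group, 8.49, 8.40 and 8.45 with low stretch and high shortening, 8.42, 8.70 and 8.51 with high stretch and low shortening, and 8.18, 8.38 and 8.41 with both high. The low-low values lay below the other 9, with 0.78 log2 for stretch (1.72-fold higher, SE 0.12, adjusted p = 0.000201) and 0.69 for shortening (adjusted p = 0.000551).

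Ndufaf7 is a mitochondrial protein methyltransferase, and its probe sets disagreed. With 1393274_at it measured 6.37, 6.25 and 6.10 log2 in the low-low group, 6.83, 7.15 and 6.60 with low stretch and high shortening, 6.63, 7.34 and 6.75 with high stretch and low shortening, and 6.69, 7.03 and 7.16 with both high. The low-low values lay below the rest, and the stretch difference was 0.66 log2 (adjusted p = 0.0172). With 1374082_at it measured 7.66, 7.66 and 7.67, then 7.70, 7.75 and 7.60, then 7.42, 7.78 and 7.59, and 7.64, 7.58 and 7.67. There the groups overlapped and the difference was -0.071 log2 (adjusted p = 0.634). Ndufaf3, which acts with Ndufaf4 in assembly of the peripheral arm, differed by -0.64 log2 (adjusted p = 0.00127), while Ndufaf4 itself differed by -0.052 (adjusted p = 0.764). Ndufaf1, a factor for the membrane arm, differed by -0.15 (adjusted p = 0.457).

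**Figure D3:**
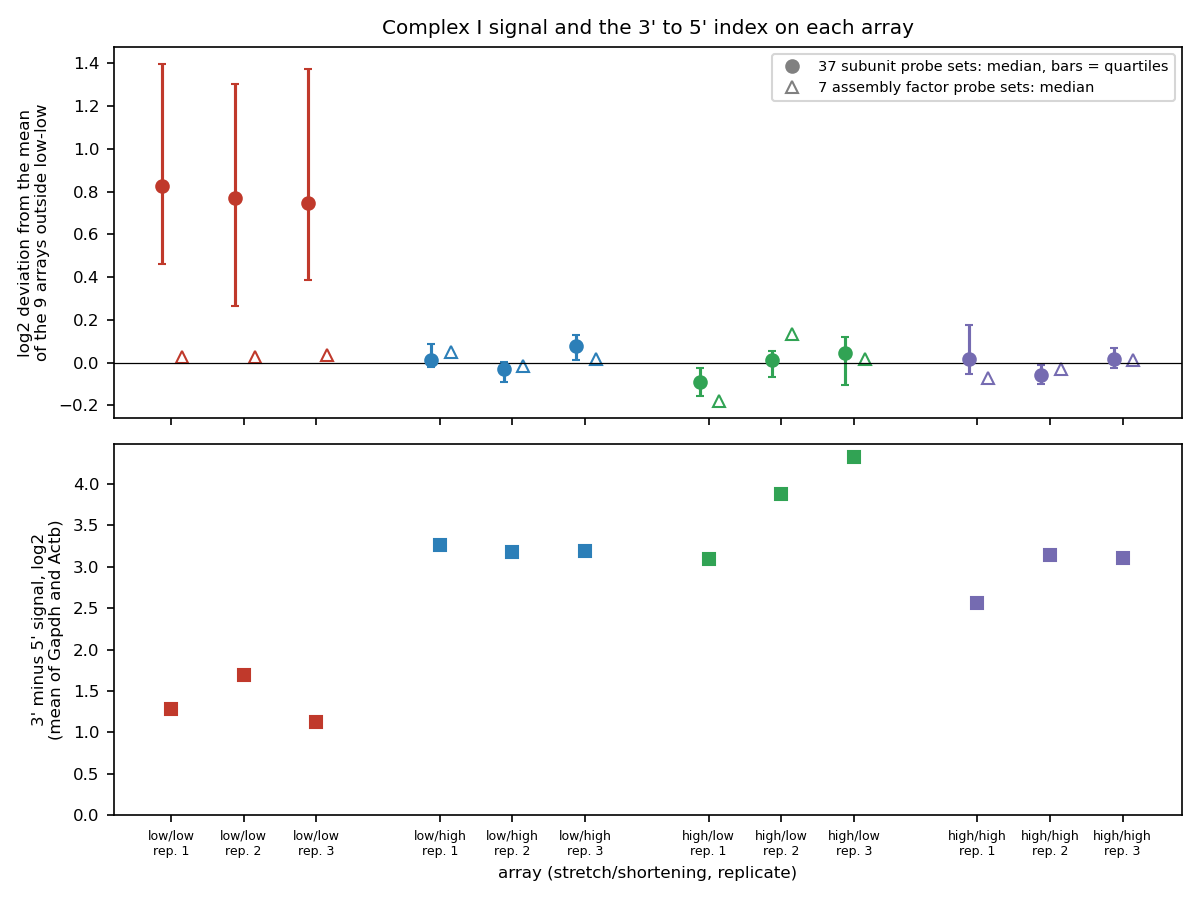
Upper panel: median log2 deviation of the 37 subunit probe sets (filled, bars from the lower to the upper quartile) and of the 7 assembly factor probe sets (open) on each array, from the mean of the 9 arrays outside the low-low group. Lower panel: the 3' to 5' index of the control genes on the same arrays; the 3 low-low arrays have subunit medians of 0.75 to 0.83 and index values of 1.13 to 1.69.

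The plot by array shows how evenly the subunit shift was spread. The median subunit deviation was 0.83, 0.77 and 0.75 log2 in the 3 low-low muscles, and between -0.090 and 0.076 in the other 9. The median deviation of the assembly factors was 0.025, 0.026 and 0.034 in the low-low muscles and -0.18 to 0.13 in the others. Among the 9 arrays outside the low-low group the 3' to 5' index ranged from 2.56 to 4.33. None of them reached the low-low range of 1.13 to 1.69. Their deviations were taken from the mean of these same 9 arrays, and so lie around 0 by construction. The array with the highest index, high stretch low shortening replicate 3, had a subunit median of 0.046 and an upper quartile of 0.12. The one with the lowest, replicate 1 of the muscles with both inputs high, had 0.018 and 0.17. That upper quartile was the highest among the 9. A link between the index and the subunit signal among these 9 was not tested.

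Stretch at high shortening compared the muscles with both inputs high with those of low stretch and high shortening, and does not use the low-low arrays in its difference. None of the 37 subunit and 7 assembly factor probe sets passed in limma, as 0% of all probe sets did, and at an unadjusted p under 0.05 there were 0 Nduf probe sets and 661 in all. Subunit differences ran from -0.33 to 0.27 log2 with a median of -0.015. The 95% intervals of 34 of 37 subunit probe sets lay within 0.5 log2 to either side of 0, and the widest bounds were -0.76 (Ndufa9, 1396282_at) and 0.69 (Ndufb8). Ndufa5 differed by -0.055 and Ndufb10 by 0.046 log2.

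Shortening at high stretch compared the muscles with both inputs high with those of high stretch and low shortening. Again 0% of probe sets passed, with 811 in all at an unadjusted p under 0.05. Of these, 2 were subunits and 1 an assembly factor, named here after their values were seen: Ndufs3 at 0.30 log2 (unadjusted p = 0.0177), Ndufb7 at 0.31 (0.0287) and Ndufaf4 at 0.28 (0.0471), each with an adjusted p of 0.999 in limma. Intervals of 31 of 37 subunit probe sets lay within 0.5 log2. Ndufb8 had the largest subunit difference at 0.36 log2, with an interval of -0.054 to 0.78 and replicate 1 of the muscles with both inputs high above its group. The groups with a single high input did not differ by test either. There 0% of probe sets passed, with 1151 at an unadjusted p under 0.05, among them Ndufs3 (-0.34 log2, high stretch with low shortening minus low stretch with high shortening) and Ndufb7 (-0.28).

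**Figure D4:**
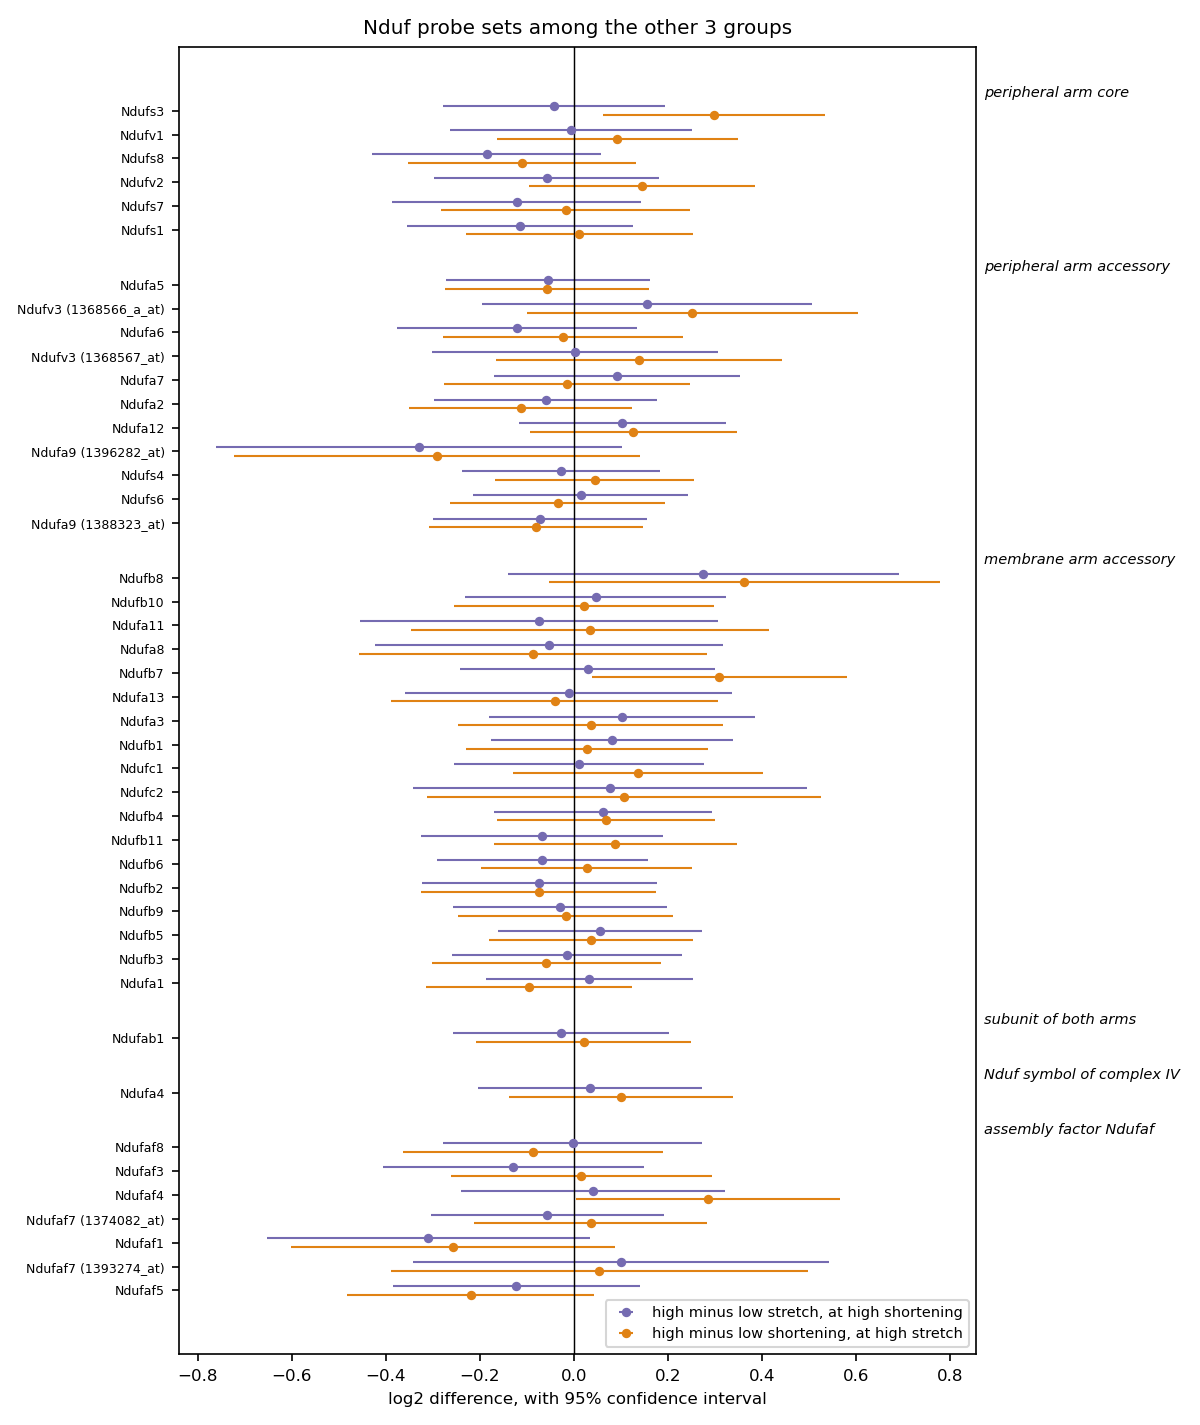
Log2 differences of the 44 Nduf probe sets for stretch at high shortening (purple) and shortening at high stretch (orange), with 95% confidence intervals from limma. Both comparisons share the muscles with both inputs high; all points lie between -0.33 and 0.36 log2 and none passed after adjustment.

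Where both inputs were high against the low-low group, 29 of 37 subunit probe sets passed as lower and none as higher. Of all probe sets 24.6% and 23% did. Ndufb8 differed by -3.86 and Ndufa5 by -3.18 log2. After a further quantile normalization 23 subunit probe sets were lower and 4 higher. Averaged over shortening, the main effect of stretch called 27 subunit probe sets as lower and none as higher, against backgrounds of 19.2% and 14.4%. The main effect of shortening called 24 and none, against 17.1% and 14.4%. After the further normalization the subunit counts were 21 and 1 for stretch, and 17 and 1 for shortening. Both main effects subtract the low-low arrays. With the control-gene index in the model the stretch main effect called 15 subunit probe sets and that of shortening 21. For these comparisons the share of all probe sets called with the index or after the further normalization is not given here. Of the assembly factors, 2 passed as lower and 1 as higher for the stretch main effect, and 1 passed as lower for shortening (Ndufaf8).

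The interaction subtracts the shortening effect seen at low stretch from the one seen at high stretch. It is positive where the low-low and both-high groups together stand above the groups with a single high input together. It passed as positive in 25 of 37 subunit probe sets and as negative in none, against 17.1% and 15.2% of all probe sets. The median over subunits was 0.80 log2. Among assembly factors Ndufaf8 and Ndufaf3 were positive and Ndufaf5 negative. After a further quantile normalization 21 subunit probe sets were positive and 2 negative. With the control-gene index in the model 5 subunit probe sets passed, and with animal weight in it 16. The shares of all probe sets under these other settings are not given here. Whether subunits lost more calls than other probe sets was not tested.

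Other genes that serve complex I or its surroundings were read from lists, each gene by its highest-mean probe set; over all probe sets 24.4% passed as lower and 24.1% as higher for stretch at low shortening. Of 11 tested assembly factors without an Ndufaf name, 5 passed as lower and 3 as higher (45.5% and 27.3%). Ecsit, part of the membrane arm assembly complex, differed by -1.44 log2 (adjusted p = 3.01e-05), Dmac2 by -1.13 and Dmac1, a membrane arm factor, by -0.90. In complex II, which feeds electrons from succinate to the same ubiquinone pool, 6 of 8 genes passed as lower (75%) and none as higher, with a median of -0.93 log2. Sdhc differed by -1.20, the iron-sulfur subunit Sdhb by -1.15 and the assembly factor Sdhaf3 by -1.53.

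Of 12 genes of iron-sulfur cluster assembly, which supply the cofactors of both complexes, 8 passed as lower and 2 as higher (66.7% and 16.7%). Bola3 differed by -1.78, Glrx5 by -1.32 and the sulfur donor Nfs1 by -0.92 log2. Of 20 genes of mitochondrial protein import 14 passed as lower and 3 as higher (70% and 15%), with Timm44 at -2.06, the outer membrane pore Tomm40 at -1.59 and Timm13 at -1.25. Regulators of mitochondrial biogenesis were mixed, with 2 of 14 lower and 3 higher (14.3% and 21.4%). Esrra, a nuclear receptor that acts on respiratory genes, differed by -0.98 log2 (adjusted p = 0.000197), while Pprc1 differed by 1.12 and Yy1 by 0.86. Cardiomyocyte markers, 6 of 13 lower and 2 higher (46.2% and 15.4%), had a median of -0.24 log2, with Tnni3 at -1.10, Myl2 at -0.90 and Myl3 at -0.80. Of these 13 markers 3 lay above 0, up to 0.65. Of 8 macrophage markers 4 passed as lower (50%) and none as higher, with a median of -0.53. Cd74 differed by -1.73, and 3 of the 8 lay above 0, up to 0.71. Of 10 fibroblast markers 3 were lower (30%) and 1 higher, with a median of -0.12, 4 of 10 above 0 and Col1a2 at -2.06. Of 9 endothelial markers 3 were lower (33.3%) and 1 higher, with a median of 0.21, 5 of 9 above 0 and Esam at -1.30. Of 7 smooth muscle and pericyte markers 1 was lower (14.3%) and none higher, with a median of -0.11. Acta2 differed by -0.44, and 2 of the 7 lay above 0. The part of any of these lists in the subunit values was not tested.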

How the data were processed

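The authors deposited log2 intensities made by RMA (version not stated), per the submitters' processing notes, for 31099 probe sets. Per its file header, a second deposited table of log2 values kept 16391 of them past an intensity of 50; shared values were identical. Genes were named from the platform table, and all 46 Nduf probe sets matched RefSeq (GRCr8). Non-control probe sets with a mean at or above the 40th percentile (4.91 log2) were fitted together in limma 3.58.1 (R 4.3.3), with a mean per group, empirical Bayes moderation and Benjamini-Hochberg adjustment over 18625 probe sets at 0.05. Precision is limited by having 3 arrays in each group. The fit was tested on simulated data. Values on every array were given for the 8 subunit and 2 assembly factor genes of smallest and the 4 subunit genes of largest interaction p, for members called against most others, and for genes whose probe sets differ; from other lists, up to 3 genes of smallest interaction p were named. The members, lists and tests were chosen with earlier results of these data known. Alternatives covered filters, the unit tested, normalization, variance models, covariates, thresholds and each array left out. Figures were drawn with matplotlib 3.10.9.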

Additional observations from a re-analysis of the deposited data

Results flagged for a closer look

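The effect of shortening differed with the level of stretch, by the interaction term in limma, in 28 of 44 Nduf probe sets, each with 3 muscles per group, where 17.1% of all probe sets passed as positive and 15.2% as negative. Fewer subunit probe sets passed with the control-gene 3' to 5' index (5) or with animal weight in the model. The number of all probe sets called in those models is not given here. Index and weight both lie apart in the low-low group, so their part and that of the inputs cannot be told apart in full. Values are log2 differences, with the 3 low-low arrays high where they are positive. The largest were Ndufb8 at 4.50 (adjusted p = 1.05e-06), Ndufa5 at 3.06 (adjusted p = 1.1e-07), Ndufv3 at 2.38 by 1368566_a_at and 0.64 by 1368567_at, and Ndufb10 at 2.34. Between 1 and 2 lay Ndufa11 at 1.91, Ndufa8 at 1.82, Ndufb7 at 1.71, Ndufa13 at 1.64, Ndufs3 at 1.60, Ndufa3 at 1.40, Ndufab1 at 1.34, Ndufv1 at 1.33 and Ndufa6 at 1.23. Under 1 lay Ndufb1 at 0.99, Ndufc1 at 0.97, Ndufc2 at 0.96, Ndufb4 at 0.87, Ndufb11 at 0.86, Ndufb6 at 0.80, Ndufs8 at 0.79, Ndufa4 at 0.78, Ndufv2 at 0.55, Ndufa7 at 0.51 and Ndufb2 at 0.49 (adjusted p = 0.036). Of the assembly factors, Ndufaf8 reached 1.34 and Ndufaf3 0.51 (adjusted p = 0.0457), and Ndufaf5 was negative at -0.91 (adjusted p = 0.00172).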

How the results depend on the processing

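Each count of subunit probe sets called was recomputed under the alternatives. Most calls kept to the common direction, with exceptions under 2 settings: quantile normalization applied again, which called up to 4 subunit probe sets the other way (of Ndufa9, Ndufa12, Ndufs4 and Ndufs6), and the trended robust prior, which called Ndufs6 for stretch at low shortening and Ndufs4 for shortening at low stretch. The cause was not tested. When the control-gene 3' to 5' index entered the model, fewer passed for stretch at low shortening (14), the stretch main effect (15) and the interaction (5). With animal weight as a covariate the interaction called 16. Asking for at least a 1.5-fold difference left 13 for the stretch main effect and 10 for that of shortening. Beyond the totals given above for the index, the number of all probe sets called under these settings is not given here. Whether subunits lost more calls than other probe sets was not tested. Why the covariates lower these counts was not tested; both lie apart in the low-low group, so their part and that of the inputs cannot be told apart in full. Leaving out each array in turn gave 27 to 28 subunit probe sets for stretch at low shortening, 26 to 27 for shortening at low stretch, 26 to 29 for both inputs, 24 to 27 and 22 to 24 for the main effects of stretch and shortening, and 22 to 27 for the interaction. The comparisons without the low-low group in their difference called 0 throughout. Of 260 interaction values of the 10 called genes shown by array, 254 kept direction and call, 6 lost the call and 0 turned. With the index covariate the lost calls were Ndufv3 at 2.03, Ndufs3 at 1.37, Ndufv1 at 1.20, Ndufb7 at 1.15 and Ndufaf5 at -0.61; Ndufaf5 was also lost with weight as covariate, at -0.75. Interactions without a call turned sign in 14 values: Ndufaf7 at -0.27 with probe sets averaged, -0.036 with array weights and -0.23 with weight as covariate, Ndufa1 at -0.23, Ndufb3 at -0.25 and Ndufb5 at -0.066 after repeated quantile normalization, and Ndufa9 at 0.087 with the index covariate. With arrays left out they ranged from -0.017 to 0.066 in Ndufa1, -0.055 to 0.098 in Ndufb3 and -0.075 to 0.11 in Ndufaf7. Of the uncalled values 1 gained a call: Ndufa9 was negative at -0.48 after repeated quantile normalization (limma adjusted p = 0.034).

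Pairing of muscles by replicate number was not seen: deviations of 18 same-numbered pairs correlated at a mean r of 0.0042, from -0.16 to 0.21. The 36 pairs of different number had a mean r of -0.0014, from -0.25 to 0.28. The difference was not tested, and with 3 arrays a group a weak shared effect could be missed. With the replicate number as a block the interaction called 24 subunit probe sets, stretch at low shortening 28 and shortening at low stretch 27. The number of all probe sets called with this block is not given here. With 3 arrays a group, small differences are not resolved: the median distance from a subunit's difference to its 95% bound was 0.25 log2 for stretch at high shortening.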

Other observations

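A pair of further probe sets carries a complex I name beside a second symbol, and so was not counted above. The probe set shared by Ndufs5 and its pseudogene Ndufs5-ps2 measured 12.78 ± 0.036 log2 in low-low muscles (SD, n = 3), 10.87 ± 0.18 where only shortening was high, 10.80 ± 0.026 where only stretch was high and 10.89 ± 0.18 with both high, and its interaction was 2.00 log2 (limma adjusted p = 9.53e-06). The probe set shared by Ndufa10 and Ndufa10l1 lay the other way, at 12.01 ± 0.019, 12.67 ± 0.16, 12.62 ± 0.15 and 12.73 ± 0.10 in the same order, with an interaction of -0.55 log2 (limma adjusted p = 0.0301). Which transcript of each pair these values read was not tested.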
